A study of Mus musculus with 6 samples.

Results

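The 67 genes described here differed in Beko cells when a Notch1-ER fusion was switched on, and differed little with either of 2 Notch inhibitors. Each gene was measured by 1 probe set. A gene was taken when its log2 level reached 5.54 on at least 1 of the 6 arrays, when its Notch1-ER difference was at least 0.58 in size, about 1.5-fold, and when its DAPT and its DNMAML-ER difference were both under 0.3. Of the 22414 probe sets, 12145 reached the level of 5.54, called the floor below, and 67 of these were members. The Notch1-ER OHT array was higher than its ethanol array for 44 of them and lower for 23. The members were chosen by the measured differences of all 3 comparisons, so every level and difference below is a description and carries no test.

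Beko is a mouse T-lineage leukaemia cell line, and RNA from 6 cultures was hybridised to 6 Affymetrix arrays. Parental cells received 10 μM DAPT or its vehicle DMSO for 24 h. Cells infected with a DNMAML-ER fusion, and cells infected with a Notch1-ER fusion, were selected and then received ethanol alone as vehicle, or hydroxytamoxifen (OHT) at 0.75 μg/mL, for 48 h. Each condition had 1 array, so no value here has a replicate check, and every difference compares 1 culture with 1 other. The promoter of the fusions, and whether a fusion line was 1 clone or a pool, could not be read from the labels.

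Notch is a cell surface receptor. After ligand binding the protease γ-secretase frees its intracellular part, which enters the nucleus, joins the DNA-binding protein RBPJ and recruits Mastermind coactivators to switch on target genes. In developing T cells it directs lineage commitment, and its activating mutations are common in T-cell leukaemia. DAPT inhibits γ-secretase, dominant-negative Mastermind (DNMAML) occupies the complex without activating it, and the oestrogen receptor (ER) part makes each fusion depend on OHT.

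The files name genes by mouse Ensembl ID only. The supplied reference gene table paired 0 of the 22414 IDs, and so 0 of the 67 members, with a symbol. Members are therefore not named, and their pathways, the lineage markers of Beko cells and the levels of Notch1, Maml1 and Esr1 were not analysed here. No promoter or protein is shown for the same reason. IDs are printed for the 2 members with the largest difference in each direction.

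Members made up a minority of the genes that differed with Notch1-ER. At the size of 0.58, 186 of the 12145 genes were higher with OHT in the Notch1-ER line (1.53%) and 99 were lower (0.815%), together 285 (2.35%). The 44 higher members were 23.7% of the first group and the 23 lower members 23.2% of the second, so the share was alike in both directions. Over both directions it was 23.5%. The other 218 genes reached 0.3 in at least 1 inhibitor pair. Among the 142 of these that were higher with Notch1-ER, 49 reached 0.3 with DAPT only, 31 with DNMAML-ER only and 62 with both. Among the 76 that were lower, the counts were 22, 14 and 40. Of all 12145 genes, 21.6% reached 0.3 with DAPT only, 8.74% with DNMAML-ER only and 11.2% with both. The 218 genes reach 0.3 by definition, so the shares of all genes are not a like reference.

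**Figure D1:**
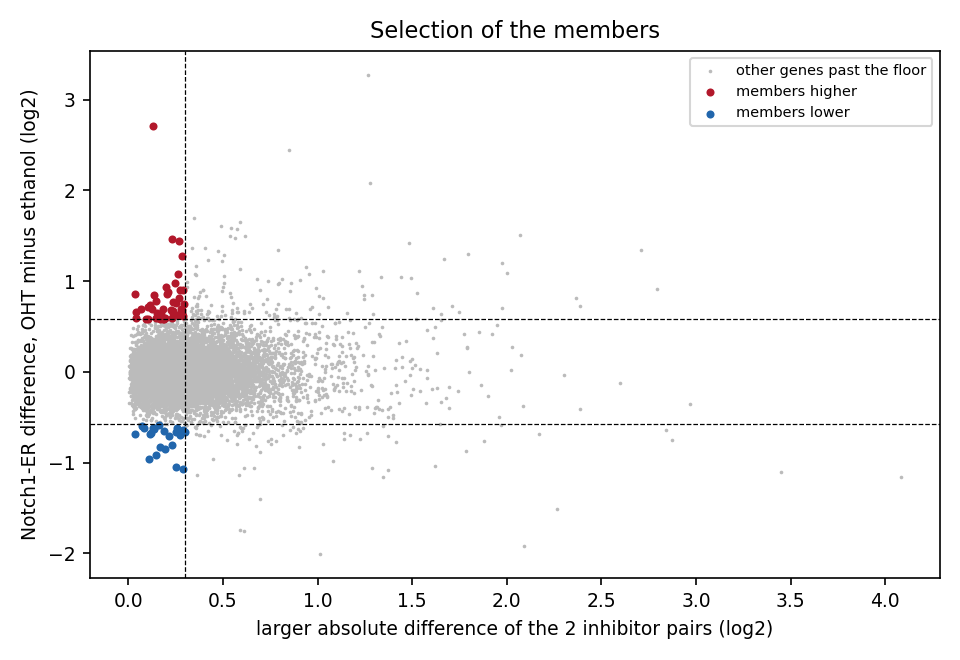
Each point is 1 of the 12145 genes past the floor. The vertical axis gives the Notch1-ER difference (log2, OHT minus ethanol) and the horizontal axis the larger absolute difference of the 2 inhibitor pairs (log2). Dashed lines mark the sizes of 0.58 and 0.3. The 44 higher members (red) and 23 lower members (blue) fill the left corners, and 1 red point at 2.71 stands far above the rest.

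Small differences with both inhibitors were common among all genes. Both were under 0.3 in 7101 of the 12145 genes (58.5%), beside the 23.5% of the 285. The same rule was also run with another pair as the one that differs. Of the 993 genes that differed at 0.58 with DAPT (8.18% of all), 322 stayed under 0.3 in the other pairs, 196 higher and 126 lower. Of the 464 that differed with DNMAML-ER (3.82%), 65 did, 35 higher and 30 lower. These shares are 32.4% and 14.0%, where 70.7% and 59.5% of all genes stayed under 0.3 in the corresponding other pairs. The Notch1-ER share lay between those of the inhibitors. The pairs have different spreads of differences, so these shares are not on 1 footing.

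**Figure D2:**
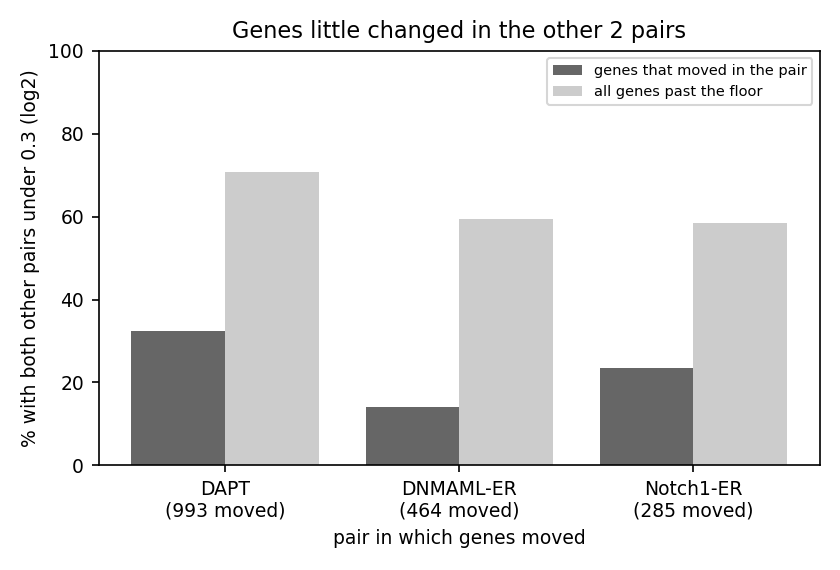
Dark bars give the share of the genes that differed at 0.58 in a pair whose differences in both other pairs were under 0.3 (log2), and light bars the same share of all 12145 genes past the floor. The dark bar is below the light one for all 3 pairs, at 32.4% for DAPT, 14.0% for DNMAML-ER and 23.5% for Notch1-ER.

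Members were found from low to high expression. The mean log2 level over the 6 arrays had a median of 7.84 in the higher members (lowest 3.59, highest 11.56) and 6.78 in the lower members (4.76 to 10.73). It was 6.66 and 6.81 in the other genes that were higher and lower with Notch1-ER, and 7.64 in all genes past the floor. In the lowest, middle and highest tertile of genes by mean level, 136, 89 and 60 genes differed with Notch1-ER, and 27, 19 and 21 of them were members. The share of members was thus 19.9%, 21.3% and 35.0%. The share of all genes with both inhibitor differences under 0.3 also went up with level, at 51.3%, 59.1% and 65.1%. Of the higher members 36 of 44 were past the floor on all 6 arrays, and of the lower members 15 of 23, beside 84.8% of all genes. For 3 higher members the Notch1-ER OHT array was the only one past the floor, so these entered through the array on which they were high. For 1 lower member the Notch1-ER ethanol array was the only one past the floor, and it entered in the same way.

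The members' differences were mostly small. In the 44 higher members the Notch1-ER difference had a median of 0.69 on the log2 scale and ran from 0.58 to 2.71, and in the 23 lower members it had a median of -0.68 and ran from -0.58 to -1.07. Beside these, the median over all genes was -0.01. Only 5 higher and 2 lower members differed 2-fold or more, where 46 (0.379%) and 18 (0.148%) of all genes did. The genes left out because an inhibitor difference reached 0.3 held more large differences, with 41 of 142 higher and 16 of 76 lower ones at 2-fold. No gap in the values set the members apart. Just inside the size stood 0.583 and 0.586 for higher and -0.581 and -0.597 for lower members, and just outside 0.576 and 0.574, and -0.579 and -0.578. With both inhibitor differences under 0.3, 17 members lay within 0.05 above the size and 33 genes within 0.05 below it. After a second quantile normalization 48 of the 67 were still members, and after cyclic loess 55. At the other limit, the larger inhibitor difference was 0.29998 and 0.291 in the members nearest to 0.3, and 0.301 and 0.309 in the nearest genes left out.

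The member with the largest difference was ENSMUSG00000008540. In parental cells it had log2 levels of 3.12 for DMSO and 2.99 for DAPT. In the DNMAML-ER line it was 3.07 without and 3.19 with OHT, and in the Notch1-ER line 3.23 and 5.95. It thus stood at about the same low level on 5 arrays, all below the floor, and was past the floor on the Notch1-ER OHT array alone. The Notch1-ER difference was 2.71, against -0.13 for DAPT and 0.12 for DNMAML-ER.

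The next was ENSMUSG00000028266, which was past the floor on every array. Its log2 level in parental cells was 9.43 for DMSO and 9.20 for DAPT. Without and with OHT it was 8.99 and 8.94 in DNMAML-ER cells, and 9.31 and 10.77 in Notch1-ER cells. The Notch1-ER OHT array again stood above the other 5, with a difference of 1.47 from its ethanol array. The DAPT difference was -0.23 and the DNMAML-ER difference -0.05.

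Among the lower members the largest difference was that of ENSMUSG00000072259, at -1.07. Parental cells had log2 levels of 5.48 for DMSO and 5.66 for DAPT. DNMAML-ER cells had 5.42 without and 5.71 with OHT, and Notch1-ER cells 6.20 and 5.13. Here the Notch1-ER ethanol array was the highest of the 6 and the OHT array the lowest, and all 4 other arrays lay close to the floor. Measured from the mean of both ethanol arrays, the difference was -0.68.

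ENSMUSG00000083567 followed with -1.05. The log2 level was 7.75 for DMSO and 8.00 for DAPT in parental cells. It was 6.94 without and 6.69 with OHT in DNMAML-ER cells, and 7.32 and 6.27 in Notch1-ER cells. Both parental arrays were above all fusion-line arrays. Those arrays differ in line, vehicle and time, and these cannot be told apart. Its inhibitor differences were 0.25 for DAPT and -0.25 for DNMAML-ER, both close to the limit and opposite in sign.

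In most higher members the OHT array of the Notch1-ER line stood apart from the other cells. It was above all 4 arrays of the other cells in 40 of 44 higher members, where this held in 18.3% of all genes and in 103 of the 142 other genes higher with Notch1-ER. The rule favours this pattern, since it takes genes with a high OHT array against ethanol and small differences within the other pairs. The share of all genes is therefore not a like reference. The ethanol array was below those 4 arrays in 12 members, beside 14.4% of all genes. In 24 members the OHT array alone stood outside the 4 arrays. In 9 the OHT array was above and the ethanol array below them, in 7 both were above, in 3 the ethanol array alone was outside, and in 1 neither was. In the same order, these patterns held in 17.8%, 0.848%, 8.07%, 19.5% and 45.8% of all genes. Relative to the mean of the 4 other arrays, the OHT array had a median of 0.72 and the ethanol array one of 0.02.

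In the lower members both arrays of the Notch1-ER line often stood apart. The OHT array was below the 4 other arrays in 20 of 23, beside 16.4% of all genes, and the ethanol array was above them in 13, beside 22.1%. In the 76 other genes lower with Notch1-ER these counts were 45 and 21. The rule favours both patterns, since it takes genes whose OHT array is low against ethanol. Both held in 10 members. The OHT array alone stood outside the 4 arrays in 9 and the ethanol array alone in 2. In 1 member both were below the 4 arrays, and in 1 both were above. Of all genes, 1.28%, 17.8%, 19.5%, 6.71% and 8.07% showed these patterns, in the same order. The medians relative to the mean of the 4 arrays were -0.48 for OHT and 0.21 for ethanol. For these 13 members part of the difference lies in a high ethanol level. The cause of that was not tested. With the mean of both ethanol arrays as vehicle the rule found 12 lower members in place of 23, and 42 higher ones in place of 44. Only 11 of the 23 lower and 32 of the 44 higher members were among them, so both sets depend on the vehicle array.

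**Figure D3:**
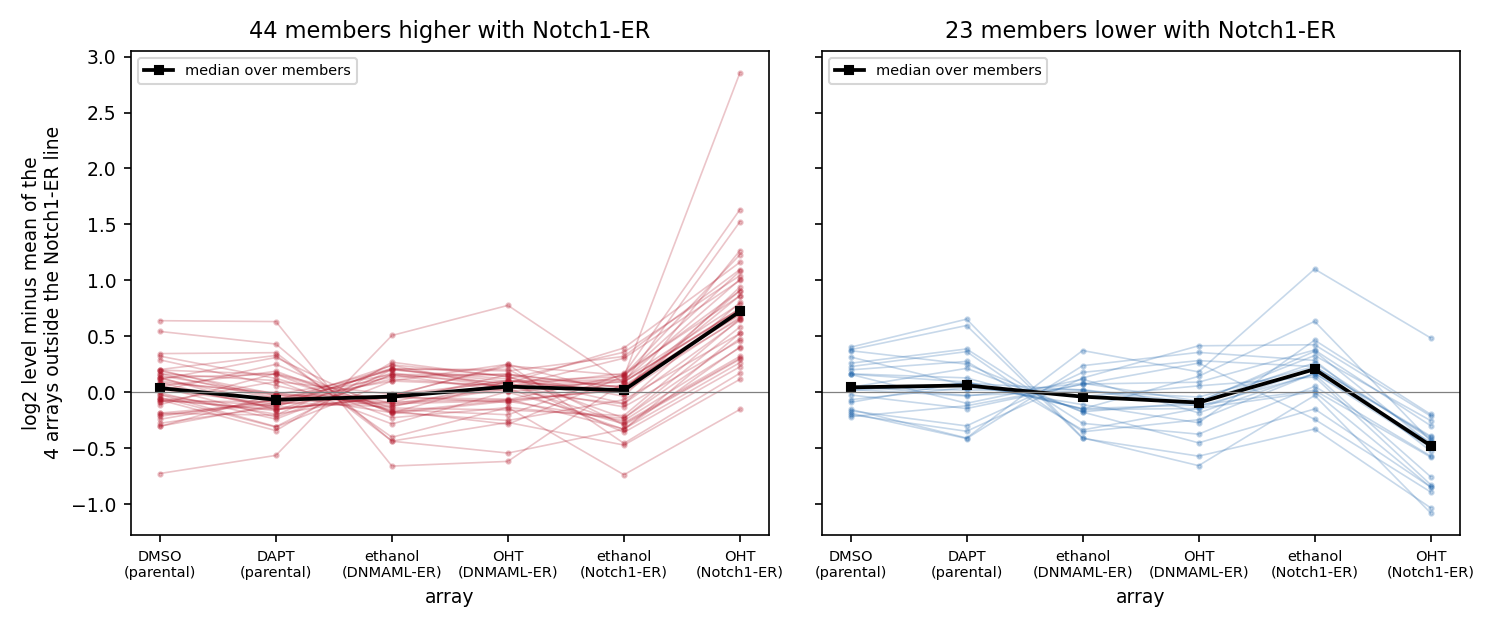
Each thin line is 1 member, plotted on the 6 arrays as its log2 level minus its mean over the 4 arrays outside the Notch1-ER line, for the 44 higher (left) and 23 lower members (right). Black squares give the median over members, which is 0.02 with ethanol and 0.72 with OHT on the left, and 0.21 and -0.48 on the right.

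Within the limit of 0.3 the inhibitor differences of members fell on both sides of 0. With DAPT, 27 of the 44 higher members were below 0 (61.4%) and 17 above, with a median of -0.08, where 47.3% of all genes were below 0. With DNMAML-ER, 20 were below (45.5%) and 24 above, with a median of 0.02, where 48.2% of all genes were below. The inhibitor differences had opposite signs in 23 of the higher members and in 10 of the 23 lower ones, where they did in 31.9% of all genes. The lower members had 13 DAPT differences below 0 (56.5%) and 10 above, and 11 (47.8%) and 12 with DNMAML-ER. Both differences were under 0.1 in 5 higher members (11.4%) and 3 lower members (13.0%). They were in 1432 of all genes (11.8%), every one of them among the 7101 genes that meet the limit of 0.3. The shares of all genes in this paragraph include genes past that limit, which members cannot be, so they are not a like reference.

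A few members also differed between vehicle arrays of different cells. The DNMAML-ER ethanol and the DMSO array differ in line, vehicle and time. Between them 5 of the 44 higher (11.4%) and 3 of the 23 lower members (13.0%) differed by 0.58 or more, beside 8.97% of all genes. In the other genes higher and lower with Notch1-ER the counts were 56 of 142 and 29 of 76. Between the Notch1-ER ethanol and the DMSO array, 5 higher (11.4%) and 4 lower members (17.4%) differed this much, beside 8.95% of all genes. Among the other genes the counts were 46 of 142 and 31 of 76. The rule also uses the Notch1-ER ethanol array, so the share of all genes is not a like reference here. The span of the 4 arrays outside the Notch1-ER line had a median of 0.40 in the higher members and 0.48 in the lower ones, against 0.90 and 1.12 in the other genes and 0.42 in all genes. The limit on the inhibitor differences holds part of this span down by construction.

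The ethanol arrays of both fusion lines, neither with OHT, were also compared with each other. They differed by 0.58 or more in 127 of 12145 genes (1.05%). Of these, 18 (14.2%) had both inhibitor differences under 0.3, 10 higher and 8 lower on the Notch1-ER array. The 67 members are 0.552% of all genes and 23.5% of the 285 that differed with Notch1-ER. These ethanol arrays are also the vehicle arrays of 2 of the 3 comparisons, and they come from different lines, so the 18 are not a replicate error. Of the members, 1 higher (2.27%) and 2 lower ones (8.70%) differed by 0.58 between the ethanol arrays, beside the 1.05% of all genes.

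Genes of the cell-cycle marker pairs supplied with the scran package were the only gene list that could be read by ID. Of the 12145 genes, 603 (4.97%) are in these pairs, and 2 of the 44 higher and 0 of the 23 lower members were.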

How the data were processed

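RNA of 6 Beko cultures, 1 per condition, was measured on Affymetrix arrays. The deposited values are log2 expression values that the authors made with RMA (version not stated), per the submitters' processing notes. This method corrects background, equalises the distributions of the arrays and summarises probes, so a change in total RNA per cell would not be seen. No source used here gives the array model, the annotation release or the build. The table has 22414 probe sets and 0 missing values, and the array medians lie between 5.43 and 5.61. The number of arrays limits the precision.

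Differences are treated minus vehicle within each pair, computed with Python 3.11.15 and pandas 2.3.3. The floor of 5.54 is the median over probe sets of the mean level. The selection code was run on simulated data, with differences larger than most members have and less spread between arrays than the real data. That run checks the code and says nothing about the members. No test is possible with 1 array per group. Alternatives used limma 3.58.1 in R 4.3.3, and cell-cycle marker IDs came from scran 1.30.0. The rule for named genes allowed every member, the largest and the most highly expressed ones in full. Because no ID could be paired with a symbol, it was kept to the 2 largest differences in each direction, and the gene lists and promoter motifs were not analysed. Members and lists were chosen with earlier results of these data known.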

Additional observations from a re-analysis of the deposited data

Results flagged for a closer look

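OHT was given to both fusion lines, and members could lie on opposite sides in them. ENSMUSG00000028266 was higher by 1.47 with OHT in the Notch1-ER line and had a difference of -0.05 in the DNMAML-ER line. ENSMUSG00000072259 had differences of -1.07 and 0.29. In all, 32 of the 67 members had OHT differences of opposite sign in the 2 lines, 20 of the higher (45.5%) and 12 of the lower ones (52.2%), beside 47.0% of all 12145 genes, so the count is near the background. With 1 array per condition in each line, this contrast between the lines was not tested. The rule holds the DNMAML-ER differences under 0.3.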

How the results depend on the processing

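The counts of members followed the thresholds. Without the floor there were 82 higher and 55 lower members, since more genes enter. With a size of 1 there were 5 and 2, which is 10.9% of the genes that differed. With an inhibitor limit of 0.2 there were 21 and 14 (12.3%), and with a limit of 0.4 there were 75 and 33 (37.9%). With the mean of both ethanol arrays as vehicle there were 42 higher and 12 lower members, and 43 of the 67 members were kept, 32 higher and 11 lower. A second quantile normalization left counts of 43 and 23 and cyclic loess 52 and 23, but only 48 and 55 of the 67 were the same genes, so membership near the limits is uncertain. The number of higher members with the OHT array above the 4 others was 40 and 48 under these normalizations, and that of lower members with it below was 19 and 20. Each of the 4 genes printed by ID had the same direction after either normalization and with the mean of the ethanol arrays. That mean brought ENSMUSG00000072259 from -1.07 to -0.68. These genes were picked for the largest differences on the same arrays, so a kept direction is no independent check. No paired analysis was possible because each group has 1 array. The alternatives could not be run for the gene lists and promoters.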
